A study of Arabidopsis thaliana with 9 samples.

Results

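HY5 is a basic leucine zipper transcription factor that promotes light-dependent development in Arabidopsis thaliana, and HYH is its closest relative. In darkness the ubiquitin ligase COP1, acting with SPA proteins, targets HY5 for degradation, and light relieves this. BBX proteins carry B-box zinc fingers. Some of them act with HY5 and promote light responses, and others interfere with it. The genes described here were HY5 (AT5G11260), HYH (AT3G17609), BBX20 (AT4G39070), BBX21 (AT1G75540), BBX24 (AT1G06040), BBX25 (AT2G31380), BBX28 (AT4G27310), BBX30 (AT4G15248), BBX31 (AT3G21890) and BBX32 (AT3G21150). These 10 genes were taken by locus ID from the 32833 genes of the count table. The rule itself used no measured values, but earlier results of these data were known when the genes were chosen. A locus ID carries its chromosome in the digit that follows AT.

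The 9 libraries came from whole rosettes of plants aged 4 weeks under a long day of 16 h light and 8 h dark, with 3 libraries for each of 3 genotypes. The first genotype was wild type (WT). The second, TINYOE, is labelled BES1P::TINYOE, a construct name that places TINY, a transcription factor of the AP2/ERF class, behind a BES1 promoter for overexpression. The third, tiny124, is labelled tiny1tiny2tiny4. No treatment, ecotype, harvest time or number of plants per library is given, and the labels do not say whether a line rests on more than 1 transformation event. Replicates are not stated to come from separate plants, so the spread behind the p-values is that of these samples and may be technical. Fewer cells of a type and less RNA per cell cannot be told apart in rosette RNA.

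Library totals lay between 4917868 and 6070778 counts. TINY tags numbered 18 to 25 per library in WT, 27 to 35 in TINYOE and 3 to 5 in tiny124. The overexpression that the first line is named for was not seen in these tags, which can miss a transgene with another 3′ end. TINY2, the second gene in the tiny124 label, had 5 to 11 tags per library in WT, 0 to 2 in TINYOE and 0 to 1 in tiny124. TINY2 was thus low in both lines, with an adjusted p of 0.0156 in TINYOE and 0.00862 in tiny124 (edgeR, no filter on low counts). The part of TINY2 in the results was not tested. WT replicate 2 stood apart from the other WT libraries on the first principal component (0.53 against -53.91 and -31.48). Levels are given as CPM, counts scaled to 1000000 per library with TMM-adjusted library sizes. The 4 green leaf markers summed to 23408 to 29452 CPM in WT, 24462 to 26347 in tiny124 and 18723 to 20684 in TINYOE, so that every TINYOE library lay below all others. The root marker RHD6 had 1 count in all libraries together and EXPA7 had 4. The third root marker, SCR, was present, at 3.42 to 8.98 CPM in WT, 8.76 to 10.9 in TINYOE and 5.08 to 6.78 in tiny124. The 3 root markers summed to at most 10.9 CPM. The 5 flower markers summed to 18.8 to 29.0 CPM in WT, 27.0 to 29.8 in tiny124 and 30.1 to 68.2 in TINYOE, and none was at 0 in any genotype.

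Of the 10 genes, 8 had enough counts to be tested and 2, BBX30 and BBX31, did not. The kit reads 1 fragment near the 3′ end of a transcript, so CPM was not divided by length. In WT, BBX24 had the highest level, at 246 ± 23.4 CPM (SD, n = 3). BBX21 (55.1 ± 14.5), BBX28 (44.5 ± 12.3) and BBX25 (30.6 ± 4.05) followed, and the ranges of neighbours in that order overlapped. HYH (9.42 ± 1.14) and HY5 (7.39 ± 1.56) also overlapped, and both lay below BBX25. BBX32 stood at 3.56 ± 0.875 CPM. BBX30 (1.24 ± 0.746), BBX20 (1.07 ± 0.712) and BBX31 (0.373 ± 0.323) rested on 19, 17 and 6 counts over the 3 WT libraries.

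**Figure D1:**
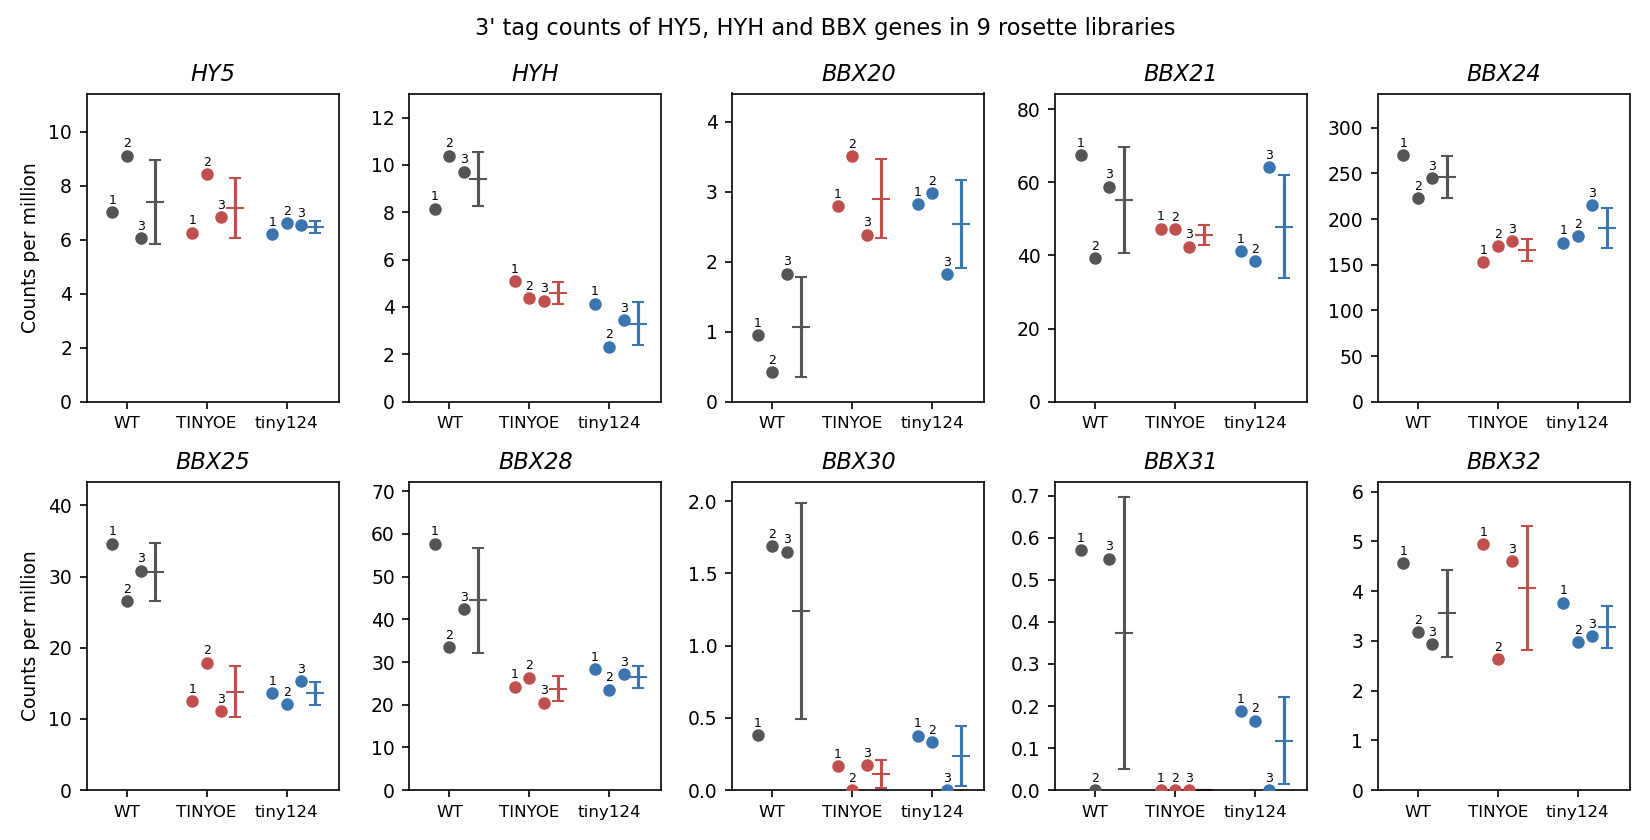
CPM (linear axes from 0, a separate scale per gene) of the 10 genes in each library. Dots are libraries with their replicate number, and the bars beside them are mean ± SD of 3 libraries. HYH, BBX24, BBX25 and BBX28 lay lower in all TINYOE and tiny124 libraries than in all WT libraries, and HY5 overlapped between the genotypes.

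In TINYOE rosettes the transcripts of HYH, BBX24, BBX25 and BBX28 fell relative to WT, by 1.48-fold to 2.21-fold. BBX20, a gene of few counts, was called higher at the threshold (adjusted p = 0.0478), a call lost in 11 of 14 alternative fits. In tiny124, HYH and BBX25 fell 2.86-fold and 2.25-fold. HY5 did not pass the test in either line. Across all 16434 tested genes, 15.6% were called in TINYOE at an adjusted p under 0.05 (7.44% lower and 8.15% higher) and 2.5% in tiny124 (0.755% lower and 1.75% higher). The median log2 fold change of the 8 tested genes was -0.42 in TINYOE and -0.29 in tiny124, beside 0.00 and -0.01 over all tested genes. The libraries of a line did not overlap with those of WT in HYH, BBX20, BBX24, BBX25 and BBX28 in TINYOE and in 4 of these, all but BBX20, in tiny124, beside 31.4% and 15.8% of all tested genes. Both comparisons used the same WT libraries. In TINYOE the summed green leaf markers were lower and the summed flower markers higher than in every library of the other genotypes, and their part in the results was not tested.

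The transcription factors HY5 and HYH differed from each other in their values. HY5 stood at 7.02, 9.11 and 6.05 CPM in WT replicates 1, 2 and 3, at 6.26, 8.41 and 6.83 in TINYOE, and at 6.21, 6.61 and 6.54 in tiny124. All 3 genotypes overlapped. The log2 fold change of HY5 was -0.04 ± 0.24 (standard error) in TINYOE (95% interval -0.54 to 0.46, adjusted p = 0.927) and -0.19 ± 0.24 in tiny124 (-0.70 to 0.32, adjusted p = 0.85).

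HYH stood at 8.16, 10.4 and 9.72 CPM in WT. TINYOE libraries held 5.10, 4.38 and 4.27 CPM, and tiny124 libraries 4.14, 2.32 and 3.45. Every WT library was above every library of the other genotypes. HYH had a log2 fold change of -1.03 ± 0.25 in TINYOE (adjusted p = 0.0113) and -1.51 ± 0.27 in tiny124 (adjusted p = 0.00555). These calls held in every alternative fit, with an adjusted p of at most 0.0466 and 0.037. WT replicate 2 is not in the authors' deposited table, where the log2 fold change of HYH was -0.96 in TINYOE (adjusted p = 0.0381) and -1.45 in tiny124 (adjusted p = 0.00519).

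BBX24 (STO) and BBX25 (STH) are closely related proteins that bind HY5 and COP1 and hold back seedling light responses. BBX24 stood at 270, 223 and 245 CPM in WT, with TINYOE at 153, 170 and 176 and tiny124 at 174, 181 and 215. Its lowest WT library was above the highest of each other genotype. The log2 fold change of BBX24 was -0.56 ± 0.16 in TINYOE (adjusted p = 0.0214) and -0.38 ± 0.16 in tiny124, which did not pass the test (adjusted p = 0.321). The call in TINYOE was lost without WT replicate 1 (adjusted p = 0.0728), WT replicate 3 (0.0652), TINYOE replicate 1 (0.0919) or TINYOE replicate 2 (0.0669).

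BBX25 stood at 34.6, 26.5 and 30.8 CPM in WT. TINYOE libraries held 12.5, 17.9 and 11.1 CPM, and tiny124 libraries 13.6, 12.1 and 15.3. The WT libraries did not overlap with those of either line, and the lines overlapped with each other. BBX25 had a log2 fold change of -1.15 ± 0.21 in TINYOE (adjusted p = 0.00154) and -1.17 ± 0.21 in tiny124 (adjusted p = 0.00632). Both calls held in every alternative fit, with adjusted p of at most 0.0125 and 0.0446. In the TAIR10.1 annotation BBX25 overlaps AT2G31390, a gene on the opposite strand with 129 to 242 counts per library. Whether counting used strand is not given in the sources used here, so reads of the overlap are uncertain. AT2G31390 itself stood at a log2 fold change of 0.19 in TINYOE (adjusted p = 0.585) and -0.06 in tiny124 (adjusted p = 0.959).

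BBX28 binds HY5 and lowers its binding to target promoters. BBX28 stood at 57.7, 33.5 and 42.3 CPM in WT, with TINYOE at 24.2, 26.3 and 20.5 and tiny124 at 28.4, 23.5 and 27.2. WT replicate 2 was the lowest WT library and still above all libraries of both lines. The log2 fold change of BBX28 was -0.91 ± 0.21 in TINYOE (adjusted p = 0.00681), and the call held in every alternative fit. In tiny124 it was -0.76 ± 0.20 and missed the threshold (adjusted p = 0.0667). Without WT replicate 2 it was -0.92 and passed (adjusted p = 0.0128), and it also passed with DESeq2 (0.0307) and with no filter on low counts (0.0147). In the authors' deposited table its adjusted p in tiny124 was 0.0371.

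BBX20 (BZS1) and BBX21 promote light responses. BBX20 is known as a gene repressed by brassinosteroid through BZR1, and BBX21 activates HY5. The WT libraries held 5, 2 and 10 counts of BBX20, the TINYOE libraries 17, 20 and 14, and the tiny124 libraries 15, 18 and 10. It passed the filter on low counts through the libraries where it is high. In CPM it stood at 0.949, 0.424 and 1.83 in WT. TINYOE libraries held 2.80, 3.51 and 2.39 CPM, and tiny124 libraries 2.82, 2.98 and 1.82. The TINYOE libraries lay above the WT libraries, and the lowest tiny124 library was level with the highest WT library.

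The log2 fold change of BBX20 was 1.39 ± 0.45 in TINYOE (adjusted p = 0.0478) and 1.20 ± 0.46 in tiny124 (adjusted p = 0.266). The call in TINYOE lay at the threshold. It was lost in 11 of 14 alternative fits, with DESeq2 (0.0998), with the 6 libraries compared only (0.0712), with the replicate block (0.084) and with each library left out in turn except WT replicate 3. Without WT replicate 2 the log2 fold change was 1.05 (adjusted p = 0.109), and without WT replicate 3 it was 2.02 (0.03). In the authors' deposited table it was 1.06 (adjusted p = 0.221).

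BBX21 stood at 67.4, 39.2 and 58.8 CPM in WT, with TINYOE at 47.3, 47.2 and 42.4 and tiny124 at 41.2, 38.4 and 64.1. WT replicate 2 lay below every TINYOE library, and tiny124 replicate 3 lay apart from the other tiny124 libraries. The log2 fold change of BBX21 was -0.28 ± 0.22 in TINYOE (95% interval -0.75 to 0.20, adjusted p = 0.433) and -0.21 ± 0.22 in tiny124 (-0.68 to 0.27, adjusted p = 0.82).

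**Figure D2:**
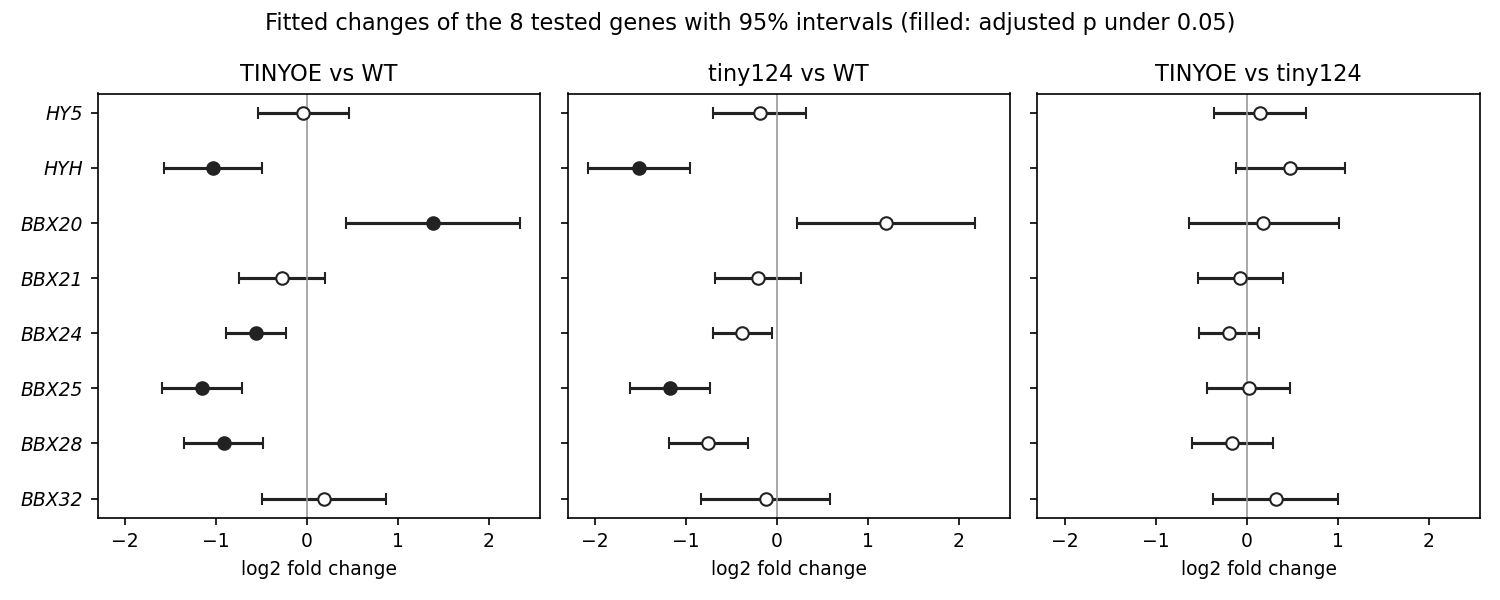
Fitted log2 fold changes of the 8 tested genes (points) with 95% intervals (bars) in the 3 comparisons, filled where the adjusted p was under 0.05. HYH and BBX25 are filled in both comparisons with WT, and none is filled in TINYOE against tiny124.

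BBX30 and BBX31 encode microproteins with a B-box and little else, which act as negative regulators of light responses and flowering, and BBX32 is a B-box protein that binds BBX21 and holds back light responses. For BBX30 the WT libraries held 2, 8 and 9 counts, the TINYOE libraries 1, 0 and 1, and the tiny124 libraries 2, 2 and 0. WT replicates 2 and 3 were above the other 7 libraries, and WT replicate 1 was level with a pair of tiny124 libraries. The ratio of depth-scaled counts of BBX30 to WT was 0.0922 in TINYOE, with a 95% exact interval from 0.0104 to 0.382, and 0.193 in tiny124, where it ran from 0.0477 to 0.58. These intervals cover counting error only. In the fit with no filter BBX30 had an adjusted p of 0.0185 in TINYOE and 0.255 in tiny124. In the authors' deposited table its adjusted p in TINYOE was 0.0869.

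For BBX31 the WT libraries held 3, 0 and 3 counts, every TINYOE library 0, and the tiny124 libraries 1, 1 and 0. With the TINYOE libraries set together at a floor of 3 counts, BBX31 would be 2.28-fold lower there than in WT. The exact 95% interval of its ratio to WT, for counting error only, allows a smaller decrease and ran up to 0.744, and in the fit with no filter its adjusted p in TINYOE was 0.128. The ratio of BBX31 in tiny124 to WT was 0.305 (95% exact interval 0.0301 to 1.71), and a difference was not detectable at this depth. BBX32 stood at 4.56, 3.18 and 2.93 CPM in WT. TINYOE libraries held 4.94, 2.63 and 4.61 CPM, and tiny124 libraries 3.77, 2.98 and 3.09, with all genotypes overlapping. Its log2 fold change was 0.19 ± 0.32 in TINYOE (95% interval -0.49 to 0.87, adjusted p = 0.723) and -0.12 ± 0.33 in tiny124 (-0.83 to 0.58, adjusted p = 0.946). BBX32 overlaps AT3G21140 on its own strand in the TAIR10.1 annotation, so its reads are uncertain in part.

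TINYOE and tiny124 were also set against each other. None of the 8 tested genes passed: 0 were called by edgeR, 0 by DESeq2, and 0 had p under 0.05 before adjustment. Of all tested genes 9.85% were called, 5.12% higher in TINYOE and 4.73% lower. The share with p under 0.05 before adjustment was not computed over all tested genes. A p above the threshold does not show that the lines were alike, and the intervals give the sizes that remained possible. For BBX25 the log2 difference, TINYOE minus tiny124, was 0.02 (95% interval -0.44 to 0.48). For HYH it was 0.48 (-0.12 to 1.08), for BBX28 -0.16 (-0.60 to 0.29), for BBX24 -0.19 (-0.52 to 0.14) and for BBX20 0.18 (-0.64 to 1.01). The widest interval of the 8 belonged to BBX20, which had the fewest counts of them. In HYH every TINYOE library lay above every tiny124 library, and such a lack of overlap held in 30.8% of all tested genes.

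Among WT libraries, replicate 2 was the lowest in 5 of the 8 tested genes, the highest in 2 and between the others in 1. On a log2 scale it lay below the mean of the other WT libraries by 0.68 in BBX21, 0.56 in BBX28, 0.30 in BBX25 and 0.20 in BBX24, towards the TINYOE values. It lay away from TINYOE in BBX20, as the largest deviation (-0.99), in HYH (0.21) and in BBX32 (-0.18). In HY5 it lay above the other WT libraries (0.45). Its direction relative to TINYOE was not settled there, as the log2 fold change of HY5 was -0.04 with WT replicate 2 and 0.14 without it. Without WT replicate 2 the log2 fold changes in TINYOE were -0.95 for HYH, -1.23 for BBX25, -1.07 for BBX28 and -0.62 for BBX24, and these 4 were called, while BBX20 was not.

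**Figure D3:**
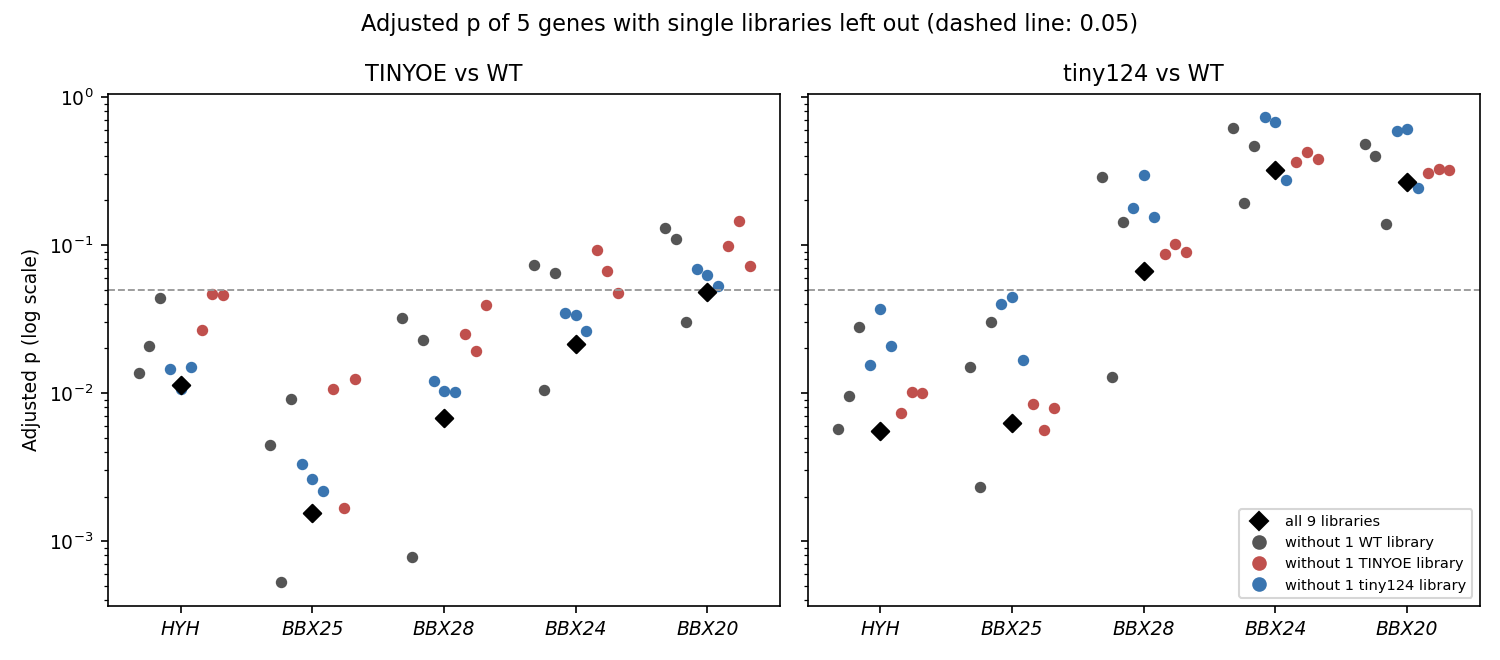
Adjusted p (log axis) of the 5 genes called in TINYOE, in the fit of all 9 libraries (diamonds) and with each library left out (dots, coloured by the genotype left out), and the dashed line marks 0.05. HYH and BBX25 stayed under the line in both comparisons with WT, while BBX20 in TINYOE crossed it in 8 of the 9 fits that leave out a library.

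The rest of the BBX family was described from a list of 24 further genes, of which 19 were tested. In TINYOE 4 of these rose and 1 fell, with a median log2 fold change of 0.04, beside 8.15% higher and 7.44% lower over all tested genes. The 5 calls became 3 without WT replicate 3 or without TINYOE replicate 3. COL3, a B-box protein that promotes light responses, rose 2.16-fold (log2 fold change 1.11 ± 0.19, adjusted p = 0.00113). COL13 rose 1.91-fold (0.93 ± 0.21, adjusted p = 0.00716). The other increases were COL8 (0.77 ± 0.22, adjusted p = 0.0256) and COL6 (0.67 ± 0.17, adjusted p = 0.0144). COL2, a relative of the flowering regulator CONSTANS, fell 2.0-fold (-1.0 ± 0.24, adjusted p = 0.00911).

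In tiny124 1 rose and 2 fell, with a median of -0.18, where 2.5% of all tested genes were called. COL8 stood at 26.0, 24.8 and 33.8 CPM in tiny124 against 14.0, 10.4 and 10.4 in WT, with no overlap, and rose 2.42-fold (1.27 ± 0.22, adjusted p = 0.00447). The rise of COL8 was shared with TINYOE, where it stood at 17.3 to 24.9 CPM and overlapped with tiny124. COL2 (-1.01 ± 0.24, adjusted p = 0.0325) and COL1 (-0.87 ± 0.19, adjusted p = 0.0188) fell. COL2 lost its call without WT replicates 1 or 3 or any tiny124 library (adjusted p 0.064 to 0.141), and COL1 without WT replicate 3 or any tiny124 library (0.0553 to 0.0974).

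Between the lines, COL13 was 2.16-fold higher in TINYOE than in tiny124 (1.11 ± 0.21, adjusted p = 0.00299) and COL1 1.68-fold higher (0.75 ± 0.19, adjusted p = 0.0165). No others of the 19 were called, so the count was 2, beside 9.85% of all tested genes. The call for COL1 was lost without tiny124 replicates 2 or 3 or TINYOE replicates 1 or 2 (0.0599 to 0.0823). BBX22, a B-box partner of HY5, lies in a stretch near the far tip of chromosome 1. There 129 of 193 tested genes were called higher in TINYOE, beside 8.15% of all tested genes. The bounds of the stretch were set with earlier results of these data known, and its calls in tiny124 were not counted. BBX22 itself stood at 0.11 ± 0.17 in TINYOE (adjusted p = 0.689) and -0.25 ± 0.17 in tiny124 (adjusted p = 0.661), a gene chosen for its place in that stretch.

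Upstream of HY5 and the BBX proteins stand the photoreceptors and the COP1/SPA machinery, listed here with a few HY5 partners as 24 genes, of which 23 were tested. In TINYOE 7 rose and 2 fell, with a median of 0.43, beside the same 8.15% higher and 7.44% lower over all tested genes. Those that rose were the photoreceptor genes PHYA, CRY2 and UVR8, the UVR8 repressor gene RUP1, the bHLH factor gene HFR1 and the G-box factor genes GBF2 and GBF3. SPA1 and SPA3, partners of COP1, fell, while COP1 itself (-0.59, adjusted p = 0.106), SPA2 (0.31, adjusted p = 0.39) and SPA4 (0.67, adjusted p = 0.301) did not pass. HFR1, which promotes light responses and limits shade elongation, stood at 7.41, 5.43 and 6.83 CPM in TINYOE against 0.759, 0.00 and 0.917 in WT, and rose 10.9-fold (3.45 ± 0.49, adjusted p = 0.000209). The 3 WT libraries held 9 counts of HFR1 and the tiny124 libraries 8, 8 and 13, against 45, 31 and 40 in TINYOE. It thus passed the filter on low counts through TINYOE, where it is high, and the size of its fold is imprecise.

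RUP1 rose 3.85-fold (1.94 ± 0.47, adjusted p = 0.00989). Its log2 fold change was 2.75 without WT replicate 2 and 1.42 without WT replicate 1, and both passed. It stood at 0.19, 3.18 and 1.65 CPM in WT, so that its WT level varied over the range of few counts, and at 5.98 to 6.92 in TINYOE. The WT libraries held 1 to 15 counts of RUP1, against 35 to 42 in TINYOE and 17 to 33 in tiny124. RUP1 thus passed the filter on low counts through the genotypes where it is high, and the size of its fold is imprecise. SPA1 stood at 52.2, 38.3 and 46.9 CPM in WT and 20.4, 22.4 and 17.9 in TINYOE, with no overlap, and fell 2.26-fold (-1.18 ± 0.19, adjusted p = 0.000651). The list count in TINYOE was 5 in place of 9 without WT replicate 1.

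In tiny124, 0 of the 23 were called by edgeR and 0 by DESeq2. Before adjustment 5 had p under 0.05 (edgeR), a count that cannot be judged, since the share of all tested genes at that threshold was not computed. A count of 0 is near the background, since 2.5% of all tested genes were called in tiny124. The median was 0.10. SPA3, the largest change among genes of at least 5 CPM, stood at -0.68 ± 0.23 (adjusted p = 0.189). HFR1 and RUP1, below that level, stood higher in tiny124 than in WT and did not pass. Their log2 fold changes were 1.54 ± 0.59 (adjusted p = 0.262) and 1.28 ± 0.49 (adjusted p = 0.266). Without WT replicate 2 the count in tiny124 was 2, and with no filter 1. Between the lines HFR1 was 3.77-fold higher in TINYOE (1.92 ± 0.40, adjusted p = 0.00522). GBF2 (0.68 ± 0.20, adjusted p = 0.0426) and UVR8 (0.53 ± 0.15, adjusted p = 0.0362) were called too. These were 3 of the 23, beside 9.85% of all tested genes called between the lines. GBF2 lost its call in 7 of 15 alternative fits (adjusted p up to 0.173) and UVR8 in 9 of 15 (up to 0.134), the replicate block included (0.069 and 0.0624).

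The third list held 18 genes known to depend on HY5 for light induction, 16 of which were tested. Several are flavonoid genes that other factors control too. In TINYOE 6 fell and 0 rose, with a median of -0.55, beside 7.44% lower and 8.15% higher over all tested genes. They were the flavonoid and anthocyanin genes CHS, F3H, DFR, LDOX and MYB75, and RBCS1A, which is also a green leaf marker above. The 10 not called were CHI, F3PH, FLS1, MYB111, ELIP1, ELIP2, LHCB1.3, PSY, NIA2 and IAA14, so the decrease did not extend over the whole list. DESeq2 also called 6. MYB75, an activator of anthocyanin genes, had 2.12 to 3.61 CPM in WT and 0.00 to 0.513 in TINYOE, and fell 11.7-fold (-3.55 ± 0.64, adjusted p = 0.0015). The TINYOE libraries held 1, 0 and 3 counts of it, the WT libraries 10 to 19 and the tiny124 libraries 12 to 27. MYB75 thus passed the filter on low counts through WT and tiny124, and the size of its fold is imprecise. Its log2 fold change was -4.77 without TINYOE replicate 3 (adjusted p = 0.00281) and -3.03 without TINYOE replicate 2 (adjusted p = 0.00865). The anthocyanin enzyme genes DFR (-3.87 ± 0.58, adjusted p = 0.000334) and LDOX (-3.09 ± 0.57, adjusted p = 0.00182) were the other large decreases. DFR moved to -4.58 when TINYOE replicate 2 was left out. In WT replicate 2 they stood at 7.20 and 1.91 CPM, against 33.0 to 45.0 and 12.8 to 14.4 in the other WT libraries. All 3 were also lower in TINYOE than in tiny124, with log2 differences of -3.91 ± 0.61 (MYB75, adjusted p = 0.000612), -4.16 ± 0.58 (DFR, adjusted p = 0.000218) and -3.60 ± 0.56 (LDOX, adjusted p = 0.000535). In MYB75 the difference was -5.13 without TINYOE replicate 3 and -3.39 without TINYOE replicate 2, and in DFR it was -4.87 without TINYOE replicate 2. Between the lines 4 of the 16 were called lower in TINYOE and 1 higher, beside 4.73% and 5.12% of all tested genes.

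In tiny124 2 of the 16 fell and 0 rose, with a median of -0.06, beside 0.755% lower over all tested genes. They were ELIP2 and ELIP1, close copies of a gene for a light-stress protein of the thylakoid, whose reads may be shared. ELIP2 stood at 12.4, 10.9 and 9.81 CPM in tiny124 against 20.7, 29.6 and 29.3 in WT and 28.3, 30.7 and 26.8 in TINYOE. The tiny124 libraries lay below all others. ELIP2 fell 2.40-fold against WT (-1.26 ± 0.20, adjusted p = 0.00249) and was 2.59-fold higher in TINYOE than in tiny124 (adjusted p = 0.000295).

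ELIP1 fell 1.97-fold in tiny124 (-0.98 ± 0.23, adjusted p = 0.0368). Its call was lost without WT replicate 3, TINYOE replicate 3 or any tiny124 library (adjusted p 0.0529 to 0.161). MYB75 stood at 0.36 in tiny124 (adjusted p = 0.829). CHS, which opens the flavonoid pathway, stood at 87.6 to 110 CPM in TINYOE, 178 to 226 in tiny124 and 259 to 329 in WT. In tiny124 its log2 fold change was -0.49 ± 0.16 and did not pass the test (adjusted p = 0.177).

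**Figure D4:**
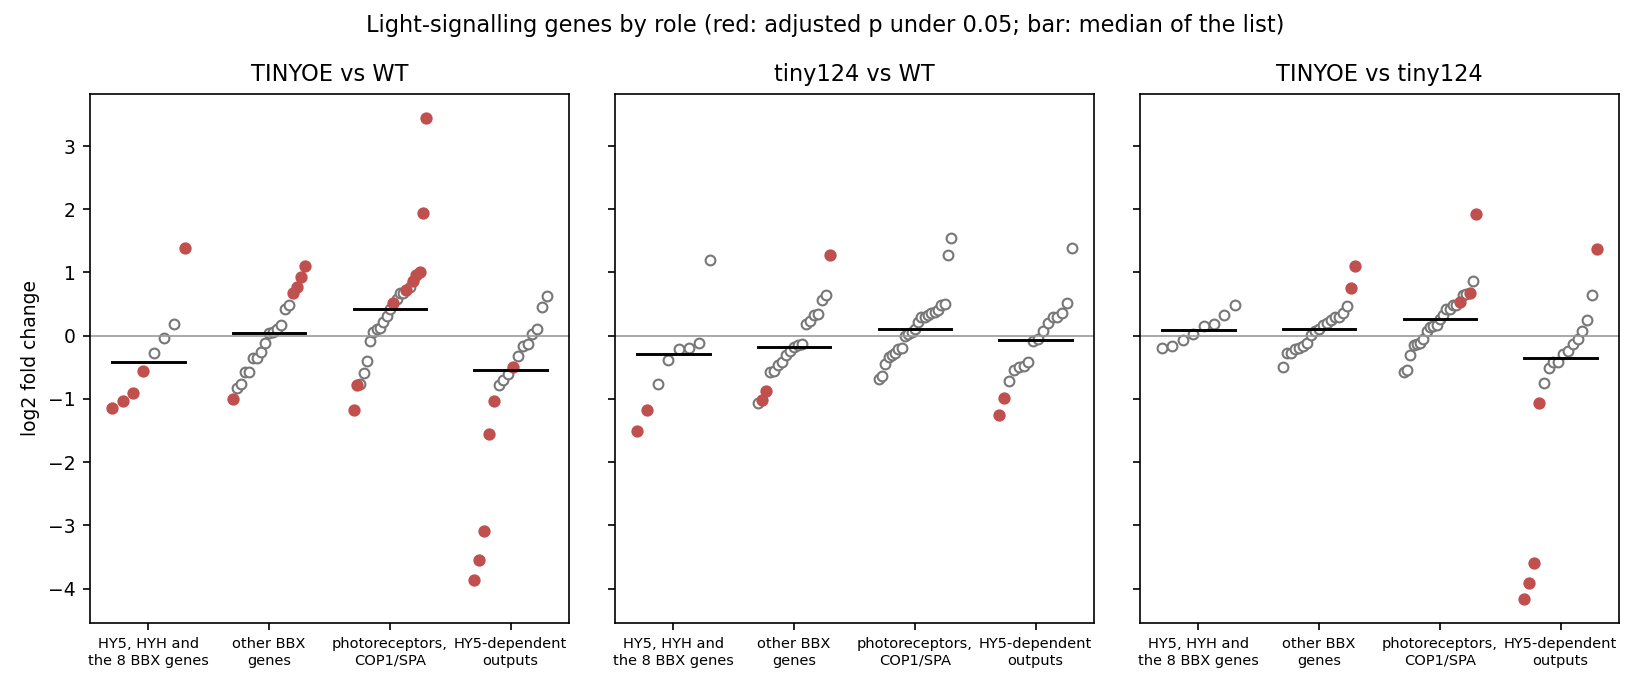
Log2 fold changes of the tested genes of each list in the 3 comparisons, sorted within a list. Red points had an adjusted p under 0.05, open points did not, and black bars are list medians. In TINYOE the list of photoreceptors, COP1/SPA machinery and HY5 partners has 7 genes called higher and 2 called lower, both of them SPA genes, and the HY5-dependent outputs have 6 called lower.

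Genes with the most similar values were sought for each of the 5 genes called in TINYOE, among 7418 tested genes with a symbol other than their locus ID. The measure was the root mean square difference of log2(CPM + 0.5), centred on each gene's mean, over the 9 libraries, and it is a description with no test. HYH was nearest to BGLU9 (0.271), MYB59 (0.275) and the morning clock gene CCA1 (0.28), against a spread of HYH itself of 0.62. BBX24 was nearest to GRIK1, a kinase acting on SnRK1 (0.0614), to GOX2, a photorespiratory glycolate oxidase (0.0656), and to PGR5, a factor of cyclic electron flow (0.067), against its own spread of 0.259.

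BBX25 was nearest to GLK2, a regulator of chloroplast development (0.173), MPK18 (0.187) and GH9C2 (0.189), with its own spread at 0.573. BBX28 was nearest to MPK18 (0.118), GRIK2 (0.126) and AOR (0.134), with its own spread at 0.434. BBX20 was nearest to MEE23 (0.299), PSK4 (0.305) and RRG (0.32), with its own spread at 0.646. GLK2 stood at 72.7, 61.2 and 58.5 CPM in WT, with TINYOE at 33.4, 34.5 and 25.5 and tiny124 at 34.1, 33.6 and 34.0. Neither line overlapped with WT in GLK2, as in BBX25.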

How the data were processed

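The authors deposited whole-number read counts per gene, not normalized, from QuantSeq 3′ libraries. Per the labels, reads were mapped to TAIR10 with the BlueBee Lexogen QuantSeq FWD pipeline 2.2.2, whose aligner and annotation are not stated in the sources used here. DESeq2 tables without WT replicate 2 were deposited by the authors too. Their deposited log2 fold changes and adjusted p-values are quoted as such, and 10 columns of normalized values in them were not used.

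Genes passing edgeR's filterByExpr (16434, without 0.296% of counts) were tested with edgeR 4.0.16 (R 4.3.3) by the quasi-likelihood test with TMM scaling. Genotype was the sole term of 1 fit to all 9 libraries (6 residual degrees of freedom). Tests were two-sided, with Benjamini-Hochberg adjustment over all tested genes, and the ± of fold changes gives standard errors. The common coefficient of variation was 0.18. The procedure was also run on simulated counts with the same spread for all genes. Those counts held no library that stands apart, as WT replicate 2 does here. Ratios of low counts have exact binomial intervals.

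Symbols came from a TAIR10.1 annotation, which held 32548 of the locus IDs. No coordinates are given, since the build differs. The genes, lists and tests were chosen with earlier results of these data known. Named genes were the 10 members, up to 3 called genes per list and comparison by size (or the largest of at least 5 CPM), and the 3 genes of most similar values. Others named, such as CHS, BBX22 and the overlapping genes, are list members or were chosen after their values were seen. Alternatives were DESeq2 1.42.0, its size factors, other filters, smaller fits, a replicate block and leaving out each library.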

Additional observations from a re-analysis of the deposited data

How the results depend on the processing

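Of 354 refitted changes of the 8 tested genes, 329 kept their direction and their side of the threshold, 15 lost the call (11 of BBX20 and 4 of BBX24, in TINYOE), 3 gained it (BBX28 in tiny124) and 7 changed sign, none of them called. With single libraries left out, the log2 fold changes that changed sign ranged from -0.17 to 0.14 for HY5 in TINYOE and from -0.25 to 0.11 for BBX32 in tiny124. Between TINYOE and tiny124 they ranged from -0.0026 to 0.32 for BBX20, from -0.21 to 0.20 for BBX21 and from -0.20 to 0.16 for BBX25. The number of the genes called was 3 to 4 in TINYOE with a library left out, against 5, and 2 to 3 in tiny124, against 2. Over all genes, leaving out a library gave 1604 to 4032 calls in TINYOE (2561 with all), 167 to 526 in tiny124 (411) and 946 to 2205 between the lines (1618), and no filter gave 706 in tiny124. Of 135 list counts 26 moved by over 1.5 times. The cause was not tested. Whether replicate numbers pair the libraries was not settled. Correlations of deviations between libraries of the same number ran from -0.307 to 0.36, the highest between replicate 2 of tiny124 and of WT. Libraries of different numbers were not compared, so these values have no reference. With the replicate block 2142, 292 and 1344 genes were called, and 4, 2 and 0 of the genes described. BBX20 and BBX30 could not be measured well at this depth, with at most 20 and 9 counts per library. BBX20, BBX32 and MYB75 gave no value under the filter of at least 5 CPM.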
